A study of Mus musculus with 16 samples.

Results

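The genes described here encode the constitutive subunits, assembly chaperones and activators of the proteasome together with the E2 ubiquitin-conjugating enzymes. They were chosen by name: every gene whose symbol starts with Psma, Psmb, Psmc, Psmd, Psme or Ube2, without the immunoproteasome subunits Psmb8, Psmb9 and Psmb10. The rule found 79 probe sets, which name 60 genes of the 8252 that the arrays name singly. Of the 60, 39 carry Psm symbols and 21 carry Ube2 symbols. For each gene the brightest probe set on average was read, and 14 genes had further probe sets, 19 in all. The symbols of 2 genes do not mean what the rule assumes: Psmc3ip is a recombination factor and no subunit, and Psme3ip1 is a partner of Psme3.

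The proteasome degrades proteins tagged with ubiquitin. Its core particle stacks alpha and beta rings, and Psmb5, Psmb6 and Psmb7 carry the proteolytic sites. The regulatory particle, made of Psmc ATPases and Psmd subunits, binds the tagged protein, removes ubiquitin and unfolds it, while Psme activators open the core without it. Counts and medians given below for the regulatory particle also include its assembly chaperones, such as Psmd5 and Psmd10. An E1 enzyme activates ubiquitin, an E2 carries it, and a ligase joins it to the substrate, so the E2 in part sets which chain is built. Dividing cells use the E2 enzymes Ube2c and Ube2s with the anaphase-promoting complex (APC/C) to clear mitotic proteins. Interferon raises Psme1, the immunoproteasome and Ube2l6, the E2 for the ubiquitin-like protein ISG15.

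Mouse RNA from 16 samples in 6 groups was hybridised to Affymetrix U74Av2 arrays, to ask what the loss of 1 allele does to expression. Embryonic stem (ES) cells gave 12 arrays, 3 from each of 4 lines: Abca1 +/-, its +/+ parental line ESVJ, Cdk4 +/-, and E14, the +/+ control named for Cdk4 +/-. Abca1 +/- and ESVJ cells were raised on irradiated embryonic fibroblast feeders and kept on gelatin for about 2 days after the feeders had been removed, and their RNA was made with Trizol/RNeasy. E14 and Cdk4 +/- cells need no feeders, and their RNA was made with RNeasy. Frozen livers gave 4 arrays, 2 of +/+ and 2 of Abca1 +/- mice by their labels, on a background mixed from 129/SvJ and C57BL6/J. The labels state neither the ages of the mice nor whether a mutant line is 1 clone. The labels do not say that the arrays of a group come from separate cultures, so a p-value measures only the spread between these samples, which may be technical.

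Signals are MAS5.0 intensities on a linear scale, rescaled so that the trimmed mean of every array is 500. A log2 difference is a difference of mean log2(signal + 32), and a gene "passed" when its adjusted p from limma (Benjamini-Hochberg over all probe sets of the fit) was below 0.05. Genes under a mean signal of 100 in a fit were not tested, and "SE" is the standard error of the difference. The Cdk4 probe set with the higher signal read 5498 to 5827 in E14 and 3448 to 3854 in Cdk4 +/-, and the other read 1350 to 2068 in E14 and 820 to 1201 in Cdk4 +/-, so neither overlapped. For Abca1 the probe set with the higher liver signal overlapped between Abca1 +/- ES cells (94.0 to 123) and ESVJ (102 to 178). In liver that probe set was higher under the Abca1 +/- label, at 555 and 699 against 301 and 327, while the second read 41.5 and 161 against 140 and 295. Because the first goes against the label, these are called livers labelled Abca1 +/-. Embryonic stem cell markers (10 genes measured) summed to 36178 to 68440 in the ES arrays and 532 to 827 in liver, and hepatocyte markers (7 genes measured) to 164976 to 224204 in liver and 379 to 850 in the ES arrays. In bulk samples a lower signal from fewer cells of a type and from less RNA per cell cannot be told apart.

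Promoters were searched for motifs named for proteasome, cell cycle and interferon genes, and 49 of the 60 genes have an entry in the RefSeq table (GRCm38.p6, 250 bases before to 50 after the start). Both strands were searched. TGACNNNGC, the core read by NFE2-family factors that control proteasome genes, was found in 8 of the 49 (16.3%) and in 14% of 27025 genes of the table. CCAAT, read by NF-Y, was found in 19 (38.8% against 41.1%), and TTTGAA, the core of the cell cycle homology element, in 7 (14.3% against 20.2%). The core of the interferon-stimulated response element was found in 4 (8.16% against 3.99%): Psmb3, Psmd4, Psmd9 and Psme1. The motifs of different names were counted separately, and some letters can belong to both strands of CCAAT. A match is a description of these letters and not a binding site. The 250 bases before the start are shown for 4 genes, Psmb5 and Psmb6 because they carry proteolytic sites and TGACNNNGC, and Ube2c and Ube2t because they are cell cycle and DNA repair E2 genes with several CCAAT matches. Capitals mark the matches on either strand. Psmb5 lies at chr14:54617996-54618245 (minus strand), Psmb6 at chr11:70525107-70525356 (plus strand), Ube2c at chr2:164769679-164769928 (plus strand) and Ube2t at chr1:134962315-134962564 (plus strand).
Psmb5: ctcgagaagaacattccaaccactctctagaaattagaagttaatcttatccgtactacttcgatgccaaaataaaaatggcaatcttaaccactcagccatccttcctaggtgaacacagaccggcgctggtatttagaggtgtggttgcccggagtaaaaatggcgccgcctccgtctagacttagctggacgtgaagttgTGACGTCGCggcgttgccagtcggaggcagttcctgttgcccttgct
Psmb6: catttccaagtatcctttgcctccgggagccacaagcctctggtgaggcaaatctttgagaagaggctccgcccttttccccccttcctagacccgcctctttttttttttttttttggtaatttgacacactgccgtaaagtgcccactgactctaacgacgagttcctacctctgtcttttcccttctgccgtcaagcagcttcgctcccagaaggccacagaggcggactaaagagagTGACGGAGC
Ube2c: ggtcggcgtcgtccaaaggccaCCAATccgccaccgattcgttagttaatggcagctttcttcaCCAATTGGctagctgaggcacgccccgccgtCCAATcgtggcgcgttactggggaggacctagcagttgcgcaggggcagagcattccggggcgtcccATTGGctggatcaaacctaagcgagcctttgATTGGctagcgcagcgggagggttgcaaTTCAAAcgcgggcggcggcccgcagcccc
Ube2t: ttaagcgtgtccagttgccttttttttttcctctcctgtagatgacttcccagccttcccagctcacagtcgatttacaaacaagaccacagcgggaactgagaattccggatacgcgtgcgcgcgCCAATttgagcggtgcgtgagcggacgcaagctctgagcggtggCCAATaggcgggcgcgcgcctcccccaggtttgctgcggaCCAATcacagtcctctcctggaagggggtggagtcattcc
The TGACNNNGC match begins at base -47 in Psmb5 and at base -9 in Psmb6. Ube2c holds 6 CCAAT matches, of which the pair at -186 and -183 overlap, and 1 TTTGAA match at -29. Ube2t holds 3 CCAAT matches, at -124, -80 and -40.

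**Figure D1:**
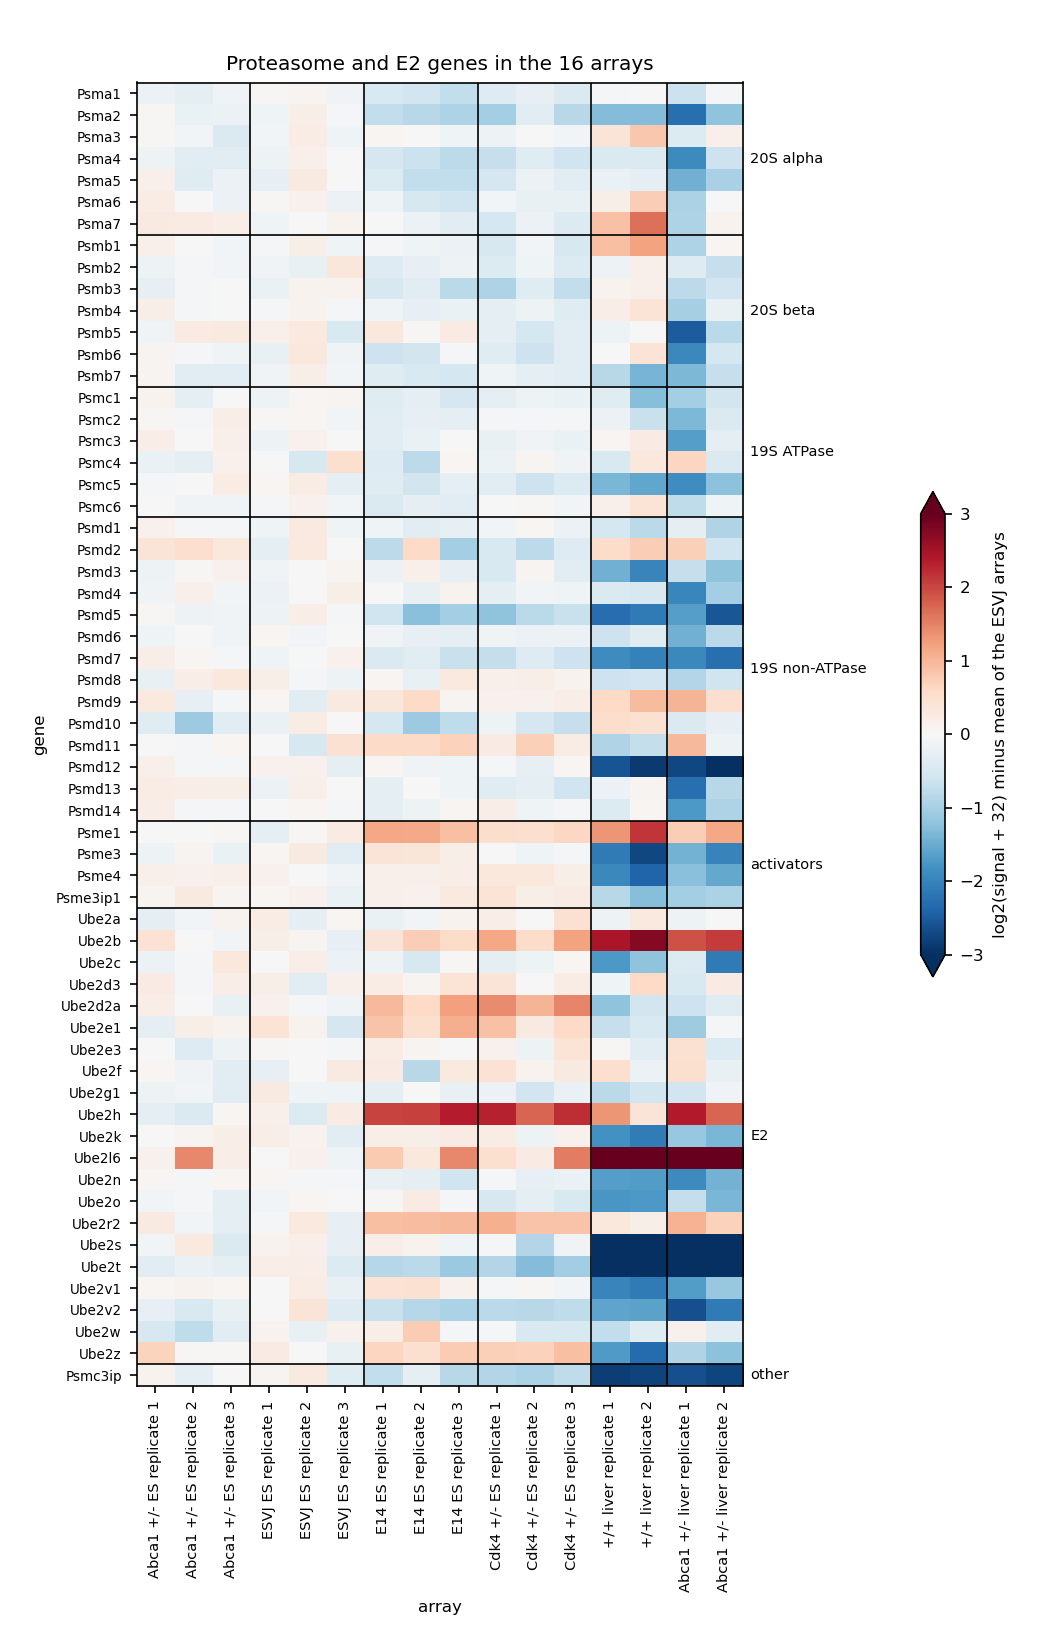
Log2(signal + 32) of the 60 genes (rows, grouped by role) in the 16 arrays (columns, grouped by sample group), relative to the mean of the 3 ESVJ arrays; red is higher and blue lower, and the scale is clipped at 3. Ube2h, Psme1 and Ube2d2a are red in E14 and Cdk4 +/- beside ESVJ, while the 4 livers are blue for Ube2s, Ube2t and Psmd12 and red for Ube2l6 and Ube2b.

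Between Cdk4 +/- and E14, 2 of 56 tested genes fell, Psme1 and Ube2o, and 0 rose. That is 3.57% of the tested genes beside 4.91% of all 7349 probe sets tested (2.59% higher and 2.33% lower). In 11 genes (19.6%) the groups did not overlap, beside 24.9% of all probe sets. The median difference was -0.02 over the tested genes and 0.02 over all probe sets. Psme1 encodes a subunit of the interferon-inducible activator. Its signal was 1807, 1785 and 1513 in E14 and 1157, 1136 and 1234 in Cdk4 +/-. The highest Cdk4 +/- array lay below the lowest E14 array, and the log2 difference was -0.52 (SE 0.14, n = 3 per group, limma adjusted p = 0.0442). Ube2o, a large enzyme that combines E2 and ligase activity, read 896, 1037 and 832 in E14 and 621, 720 and 627 in Cdk4 +/-. These groups did not overlap either, and the log2 difference was -0.47 (SE 0.13, adjusted p = 0.0459). The second tested Ube2o probe set gave -0.46 (SE 0.18, adjusted p = 0.153).

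Among the other activators, Psme3 gave -0.37 (adjusted p = 0.158) and Psme4 0.09 (adjusted p = 0.681), and the partner Psme3ip1 gave 0.10 (adjusted p = 0.729). The mitotic E2 genes did not pass in Cdk4 +/-, with 0.08 for Ube2c (95% interval -0.30 to 0.47) and -0.41 for Ube2s (-0.88 to 0.05). Ube2f, an E2 for NEDD8, gave 0.36 (adjusted p = 0.475). Of the 14 core subunits and the 18 tested genes of the regulatory particle, 0 passed, and their medians were -0.04 and 0.03. Of the 8 tested immunoproteasome and peptide-loading genes, 3 fell beside Psme1: Psmb8 by 0.92, Psmb10 by 0.72 and H2-D1 by 0.56 on the log2 scale (adjusted p = 0.0374, 0.0321 and 0.034). Cdc34, a ubiquitin-conjugating enzyme of the cullin ligases that the name rule does not take in, fell by 0.62 (adjusted p = 0.0148). These list genes were not refitted under the alternatives, and Psmb8, Psmb10 and H2-D1 also lay near the threshold of 0.05. Both calls among the 60 genes were close to the threshold. The count was 0 with any of the 3 Abca1 +/- ES arrays, ESVJ replicate 2, E14 replicate 1 or 2, or Cdk4 +/- replicate 1 or 3 left out, and 1 without ESVJ replicate 1 or Cdk4 +/- replicate 2. The marker sum of embryonic fibroblasts (9 genes measured) ran from 4588 to 5023 in E14 and from 6179 to 6807 in Cdk4 +/-, and Thy1, Lum, Postn and Dcn averaged under 100 in both. Of 4 tested markers 1 passed and was higher, and Sparc, at 2297 in E14 and 3738 in Cdk4 +/-, made up most of the difference in the sum. Its part in the result was not tested.

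**Figure D2:**
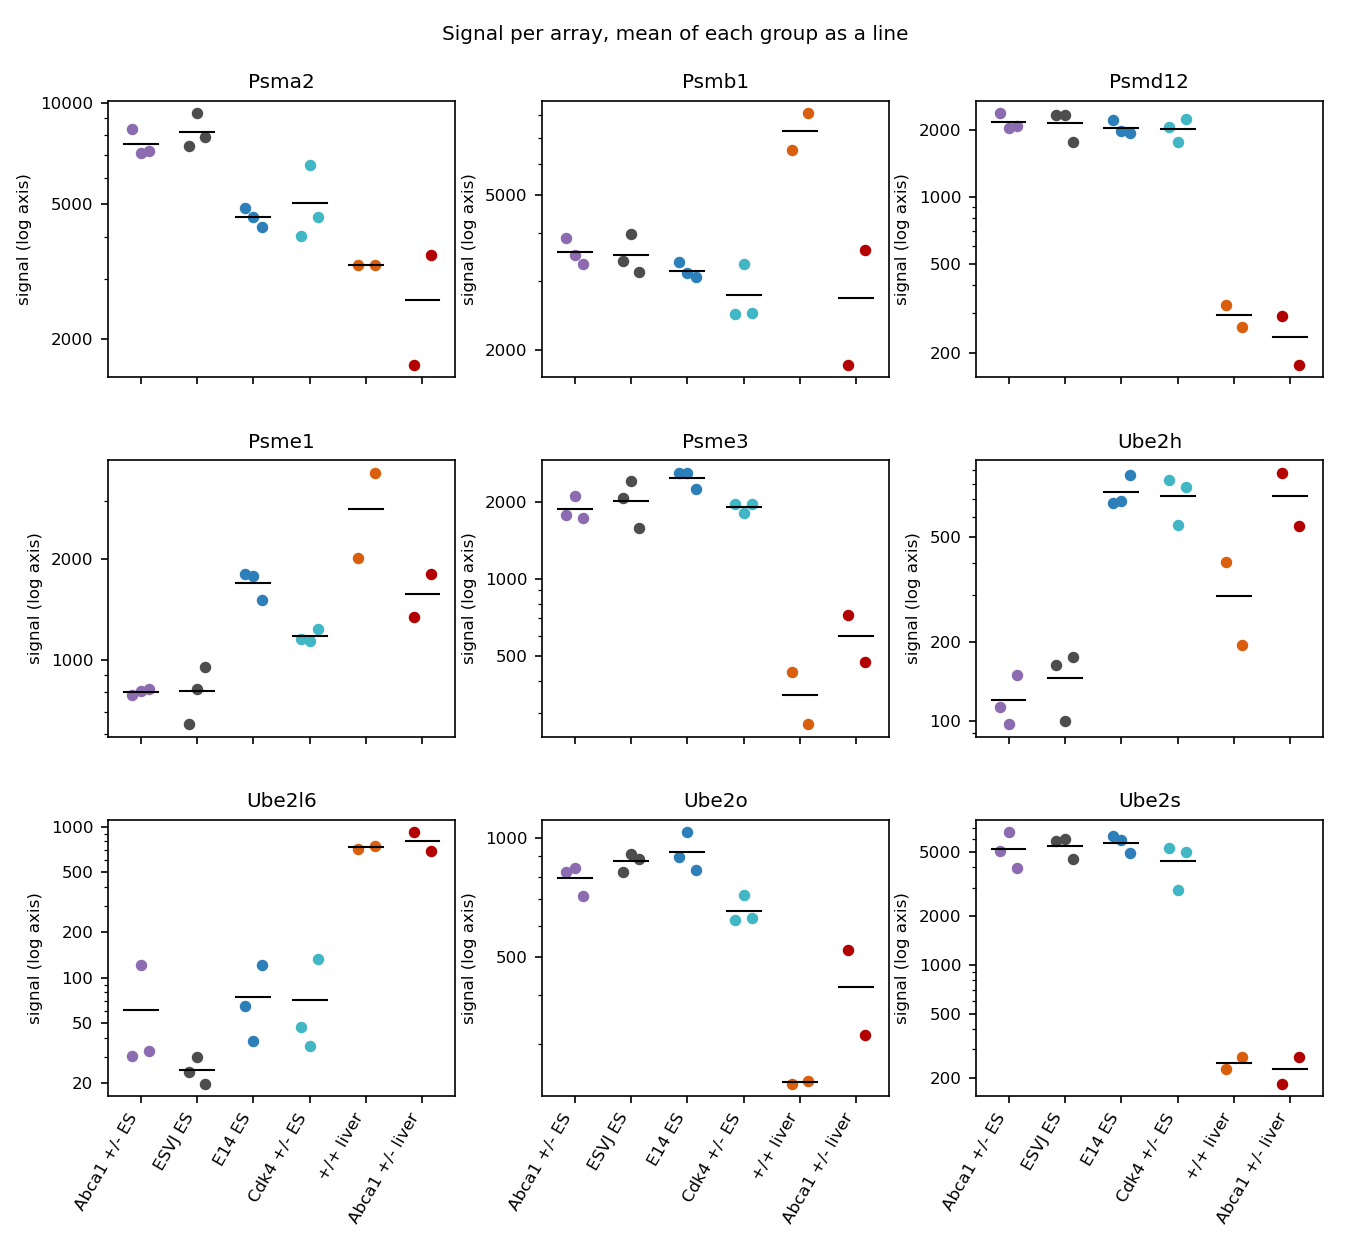
Signal per array (log axis, linear intensity) of 9 genes in the 6 groups, 3 ES arrays or 2 livers per group, with a line at each group mean. Psme1 is lower in the 3 Cdk4 +/- arrays (1136 to 1234) than in the 3 E14 arrays (1513 to 1807), and Ube2h separates E14 and Cdk4 +/- (557 to 865) from ESVJ and Abca1 +/- ES cells (96.8 to 175).

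Between Abca1 +/- ES cells and their parental line ESVJ, 0 of 56 genes passed in limma, beside 2 of 7349 probe sets (0.0272%, with 0.0136% higher and 0.0136% lower). The groups did not overlap in 5 genes (8.93%), beside 7.93% of all probe sets. At an unadjusted p under 0.05 there were 2 genes (3.57%, beside 3.28% of all probe sets). These were Psmd10, known as gankyrin and an assembly chaperone of the regulatory particle, at -0.60 (95% interval -1.11 to -0.09), and Psma4, an alpha-ring subunit, at -0.27 (SE 0.13). Next in order of p came Psma7 at 0.24, Ube2v2 at -0.32 and Psmd13 at 0.20, and the adjusted p was 0.9997 for each of the 5. The signal of Psma7 was 4393, 4325 and 4175 in Abca1 +/- ES cells and 3323, 3668 and 3936 in ESVJ, so the groups did not overlap. The activators gave 0.02 for Psme1 (95% interval -0.28 to 0.31), -0.10 for Psme3 and 0.15 for Psme4, and the partner Psme3ip1 gave 0.15. The mitotic E2 genes gave 0.04 for Ube2c and -0.08 for Ube2s, and Ube2f gave -0.12. The intervals of the tested genes show how large a difference could have been missed: for Ube2f it ran from -0.69 to 0.44.

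In livers labelled Abca1 +/- against +/+ livers, 0 of 55 tested genes passed in limma, beside 1 of 7160 probe sets, which was higher (0.0140%, with 0% lower). The groups did not overlap in 31 genes (56.4%), beside 51.7% of all probe sets. At an unadjusted p under 0.05, however, there were 17 genes (30.9%, beside 18.4% of all probe sets), 13 of them lower (23.6%, beside 6.68%). Of the 14 core subunits 0 passed, while 13 of 14 differences were below 0, with a median of -0.87, beside 0.11 over all probe sets, and 8 had an unadjusted p under 0.05. Replicate 1 of the labelled livers, which stood apart in its RNA controls, was the lowest of the 4 livers for 12 of the 14. After quantile normalization the core median was -0.60, beside -0.03 over all probe sets. For 11 of the 14 both labelled livers lay below both +/+ livers, beside 21.4% of all probe sets. Psma7 read 6719 and 11400 in +/+ livers and 1898 and 3943 in the labelled ones, a log2 difference of -1.67 (SE 0.43, n = 2 per group, adjusted p = 0.123). Psmb1, a structural beta subunit, read 6524 and 8086 against 1835 and 3610, a difference of -1.48 (SE 0.39, adjusted p = 0.125). Psmb5, which carries the chymotrypsin-like site, read 4850 and 5322 against 934 and 3060, a difference of -1.56 (SE 0.50, adjusted p = 0.168). In each of these 3 genes the lowest value came from replicate 1 of the labelled livers, and both labelled livers lay below both +/+ livers.

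The remaining genes with the smallest p were Psmd13, a lid subunit, at -1.50 (adjusted p = 0.156), and Psmb6, which carries the caspase-like site, at -1.44 (adjusted p = 0.168). The 18 tested genes of the regulatory particle had a median of -0.24 and the 19 tested E2 genes one of 0.17. Among activators and the partner Psme3ip1, Psme1 gave -0.79, Psme3 0.72, Psme4 0.78 and Psme3ip1 0.07, with adjusted p of 0.302, 0.334, 0.267 and 0.933. Ube2c gave 0.19, Ube2s -0.12, Ube2l6 0.12 and Ube2f -0.03, with adjusted p of 0.89 or more. A second probe set of Psmb1 gave -0.81 (adjusted p = 0.242), and a second one of Psmb5 gave 0.08 (adjusted p = 0.921).

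Replicate 1 of the labelled livers stood apart in its RNA controls. Its ratio of 3' to 5' signal, which rises when RNA is broken or poorly copied, was 8.23 for beta-actin and 4.10 for Gapdh, beside 1.04 to 2.14 and 0.80 to 1.19 in the other 15 arrays. Beside the core subunits, it was the lowest of the 4 livers for 10 of the 20 regulatory-particle genes and for 8 of the 21 E2 genes. Without it, the core median was -0.61, with 12 of 14 differences below 0. Without replicate 2, the core median was -1.25. Each of these fits left 1 labelled liver, so genes that passed are not counted for them. The median over all probe sets is not given for these fits. The median signal of the array was 165.1 in replicate 1 of the labelled livers and 126.1, 128.5 and 132.2 in the other livers. The macrophage marker sum (8 genes measured) ran from 5220 to 8633 in the labelled livers and from 3720 to 4595 in +/+ livers, the lymphocyte sum (6 genes measured) from 1879 to 3692 and from 1076 to 1438, and Marco, Ptprc, Cd3e and Cd3g averaged under 100 in both groups. Cd74, at 666 in +/+ and 1819 in labelled livers, and Ighm, at 421 and 686, made up most of the lymphocyte sum. Of 7 tested macrophage markers and 2 tested lymphocyte markers, 0 passed. The part of RNA quality and of other cell types in the result was not tested.

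**Figure D3:**
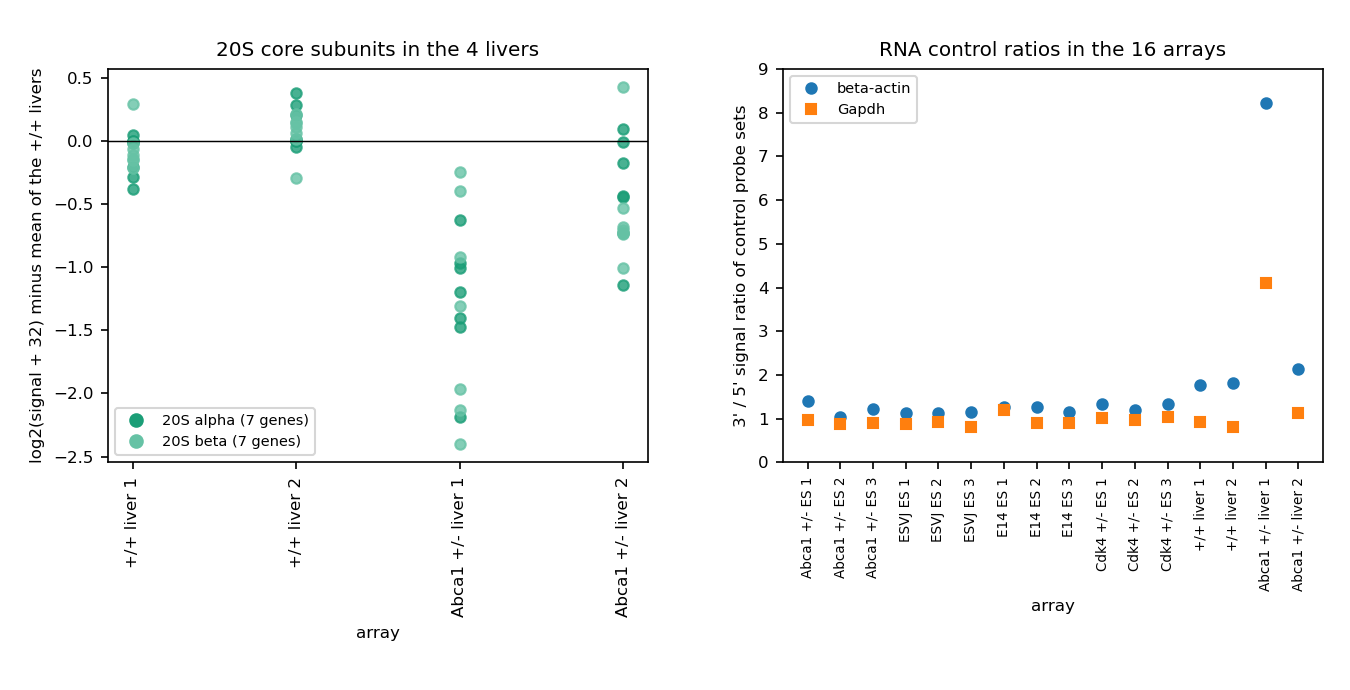
Left, log2(signal + 32) of the 14 core subunits in the 4 livers, relative to the mean of the +/+ livers (points are genes, alpha or beta ring). Right, the 3' to 5' ratio of the beta-actin and Gapdh control probe sets in the 16 arrays. Replicate 1 of the livers labelled Abca1 +/- has the lowest values on the left for 12 of 14 subunits and the highest ratios on the right, 8.23 and 4.10.

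The Abca1 label was also compared between tissues, as the difference in ES cells minus the difference in liver. This fit used 1 estimate of spread for ES cells and livers, which differ in spread. Their own fits had a median standard error of 0.175 with 3 arrays per group and 0.379 with 2, which reflects the number of arrays as well as the spread. The adjusted p may therefore be too small for a difference that lies in the livers. Of 56 genes, 2 passed (3.57%, beside 2.38% of 7883 probe sets, 0.368% higher and 2.02% lower): Psma7 at 1.91 (SE 0.41, limma adjusted p = 0.0369) and Psmb1 at 1.51 (SE 0.36, adjusted p = 0.0494). In ES cells Psmb1 read 3885, 3496 and 3319 under the mutation and 3376, 3958 and 3172 in ESVJ, so its groups overlapped there. A second Psmb1 probe set gave 0.88 in the difference between tissues (adjusted p = 0.103). The core median was 0.78, beside -0.12 over all probe sets, and 13 of 14 differences were above 0. After quantile normalization it was 0.47, beside 0.01, and 0 genes passed. The other named differences were 0.81 for Psme1, -0.82 for Psme3, -0.63 for Psme4, 0.08 for Psme3ip1, -0.15 for Ube2c, 0.04 for Ube2s, 0.47 for Ube2l6 and -0.09 for Ube2f, with adjusted p between 0.198 and 0.965. The 2 calls were lost with any ES array left out. Leaving out a liver leaves a lone liver in its group, so calls are not given for those fits. Without labelled liver replicate 1, the array with the high 3' to 5' ratios, the differences were smaller, at 1.38 for Psma7 and 1.03 for Psmb1.

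The parental lines E14 and ESVJ differed in 27 of 56 tested genes, 9 higher and 18 lower in E14 (48.2%, beside 42.6% of all probe sets, 19.8% higher and 22.8% lower). The arrays of the lines did not overlap in 26 genes (46.4%), beside 52.0% of all probe sets. Of the 14 core subunits 7 were lower and 0 higher, with a median of -0.40 beside -0.09 over all probe sets: Psma1, Psma2, Psma4, Psma5, Psma6, Psmb3 and Psmb7. Psma2, an alpha-ring subunit, read 7424, 9298 and 7921 in ESVJ and 4876, 4597 and 4275 in E14. The groups were far apart, and the difference was -0.83 (SE 0.16, n = 3 per group, limma adjusted p = 0.000687). Psma4 was lower by a log2 difference of -0.64 and Psma5 by -0.63 (adjusted p = 0.00089 and 0.00613).

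In the regulatory particle, counted with its assembly chaperones, 7 of 18 genes were lower in E14 and 1 higher, with a median of -0.19. This count rested on single arrays: without ESVJ replicate 2 it was 2 lower and 0 higher (median -0.10), without E14 replicate 1 or 2 it was 4 lower and 1 higher, and with all 16 arrays in 1 fit 3 lower and 0 higher. Psmd5, an assembly chaperone of the ATPase ring, read 2076, 2633 and 2203 in ESVJ and 1512, 949 and 1107 in E14, a difference of -0.95 (SE 0.17, adjusted p = 0.000486). Every E14 value lay below every ESVJ value. Psmd10, the chaperone gankyrin, gave -0.79 (adjusted p = 0.0151). Psmd11, a lid subunit, gave 0.62 (adjusted p = 0.0168) in the probe set with the highest signal, but its other probe sets gave 0.01 (adjusted p = 0.939) and -0.76 (adjusted p = 0.00402), so its direction was not settled. Psmc3ip gave -0.61 (adjusted p = 0.0272).

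Psme1 was 2.09-fold higher in E14, with 642, 820 and 951 in ESVJ and 1807, 1785 and 1513 in E14, a log2 difference of 1.06 (SE 0.14, adjusted p = 2.18e-05). The E14 arrays in this difference are the same arrays as in the Cdk4 comparison. Psme3, Psme4 and Psme3ip1 gave 0.31, 0.17 and 0.19 and did not pass, except that Psme3 passed without ESVJ replicate 2 (0.44, adjusted p = 0.0276). Beside Psme1, 6 of 8 tested immunoproteasome and peptide-loading genes were higher and 0 lower, with 2.30 for B2m, 2.05 for Tapbp, 1.53 for Tap1 and 1.0 for H2-K1.

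Among the E2 enzymes 7 of 19 were higher and 3 lower in E14, with a median of 0.11. Without ESVJ replicate 3 the counts were 4 and 3, and with the probe sets of a gene averaged the median was -0.04, so no direction was settled for the class. Ube2h, an E2 that works with the CTLH ligase, read 162, 99.8 and 175 in ESVJ and 674, 687 and 865 in E14. The groups did not overlap, and E14 was 4.41-fold higher, a log2 difference of 2.14 (SE 0.21, adjusted p = 1.15e-06), although a second probe set gave 0.39 (SE 0.51, adjusted p = 0.546). Ube2r2, an E2 of cullin ligases, gave 0.94 (adjusted p = 0.000222), and Ube2d2a, an E2 with many ligase partners, gave 0.93 (adjusted p = 0.000543). A second Ube2d2a probe set gave 0.92 (adjusted p = 0.0112). Ube2e1 gave 0.81 (adjusted p = 0.0104) and Ube2b, an E2 of DNA repair and histone ubiquitination, 0.56 (adjusted p = 0.0376).

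Ube2z, an E2 charged by the alternative E1 enzyme Uba6, gave 0.62 (adjusted p = 0.00954), but its second probe set gave -0.70 (adjusted p = 0.00253). Ube2t, the E2 of the Fanconi anaemia pathway, read 986, 996 and 643 in ESVJ and 460, 474 and 377 in E14, a difference of -0.93 (SE 0.17, adjusted p = 0.000561). Its groups did not overlap. Ube2v2, a catalytically inactive partner of Ube2n, gave -0.82 (adjusted p = 0.00158). Ube2c gave -0.20, Ube2s 0.06 and Ube2f -0.09, and these did not pass.

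The pathway lists are read against the 42.6% of all probe sets called in this comparison. Of 16 tested genes for proteasome assembly, shuttling and deubiquitination, 4 were higher and 3 lower: the assembly chaperones Psmg1 at -0.91 and Psmg3 at -0.66, the shuttle factor Ubqln2 at 0.95 and the proteasome adaptor Ecpas at 0.76. Of 13 cullin ligase genes, 4 were higher and 2 lower, among them Cul4a at 0.93, Fbxw11 at 0.53, Cul2 at -0.45 and Cdc34 at 0.40. Of 10 APC/C genes, 4 were lower and 0 higher, namely Cdc26 at -0.60, Cdc20 at -0.38, Anapc5 at -0.39 and Anapc1 at -0.37. Of 4 ubiquitin and E1 genes, Uba7, the E1 for ISG15, was lower at -0.64. Calls were lost for Psmd11 and Psmd10 without ESVJ replicate 2 (adjusted p = 0.0885 and up to 0.0635), for Ube2e1 without ESVJ replicate 3 (0.0587), for Psmd10 without E14 replicate 2, and for Psmc3ip and Ube2b without any of 4 arrays each (up to 0.117 and 0.141).

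The cell line, the feeders and the RNA method change together between E14 and ESVJ and cannot be told apart. Markers of stem cells, of other cells and of growth also moved with the lines. Embryonic stem cell markers summed to 36178 to 41777 in E14 and 58879 to 68236 in ESVJ, and 10 of 10 tested markers were lower in E14. Markers of simple epithelium and endoderm (8 genes measured) summed to 20484 to 23719 in E14 and 2437 to 2560 in ESVJ, with Krt8, Krt18 and Krt19 making up most of the sum in E14, and of 7 tested genes 3 were higher and 3 lower. Proliferation markers (9 genes measured) summed to 15347 to 17189 in E14 and 21981 to 24184 in ESVJ. Fibroblast markers summed to 4588 to 5023 in E14 and 3175 to 3330 in ESVJ, and of 4 tested markers 2 were higher and 1 lower. Sparc averaged 2297 in E14 and 953 in ESVJ and Col1a1 937 and 388, but Col1a2 averaged 867 and 1334 and Thy1 47.7 and 114. Their part in the differences was not tested.

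**Figure D4:**
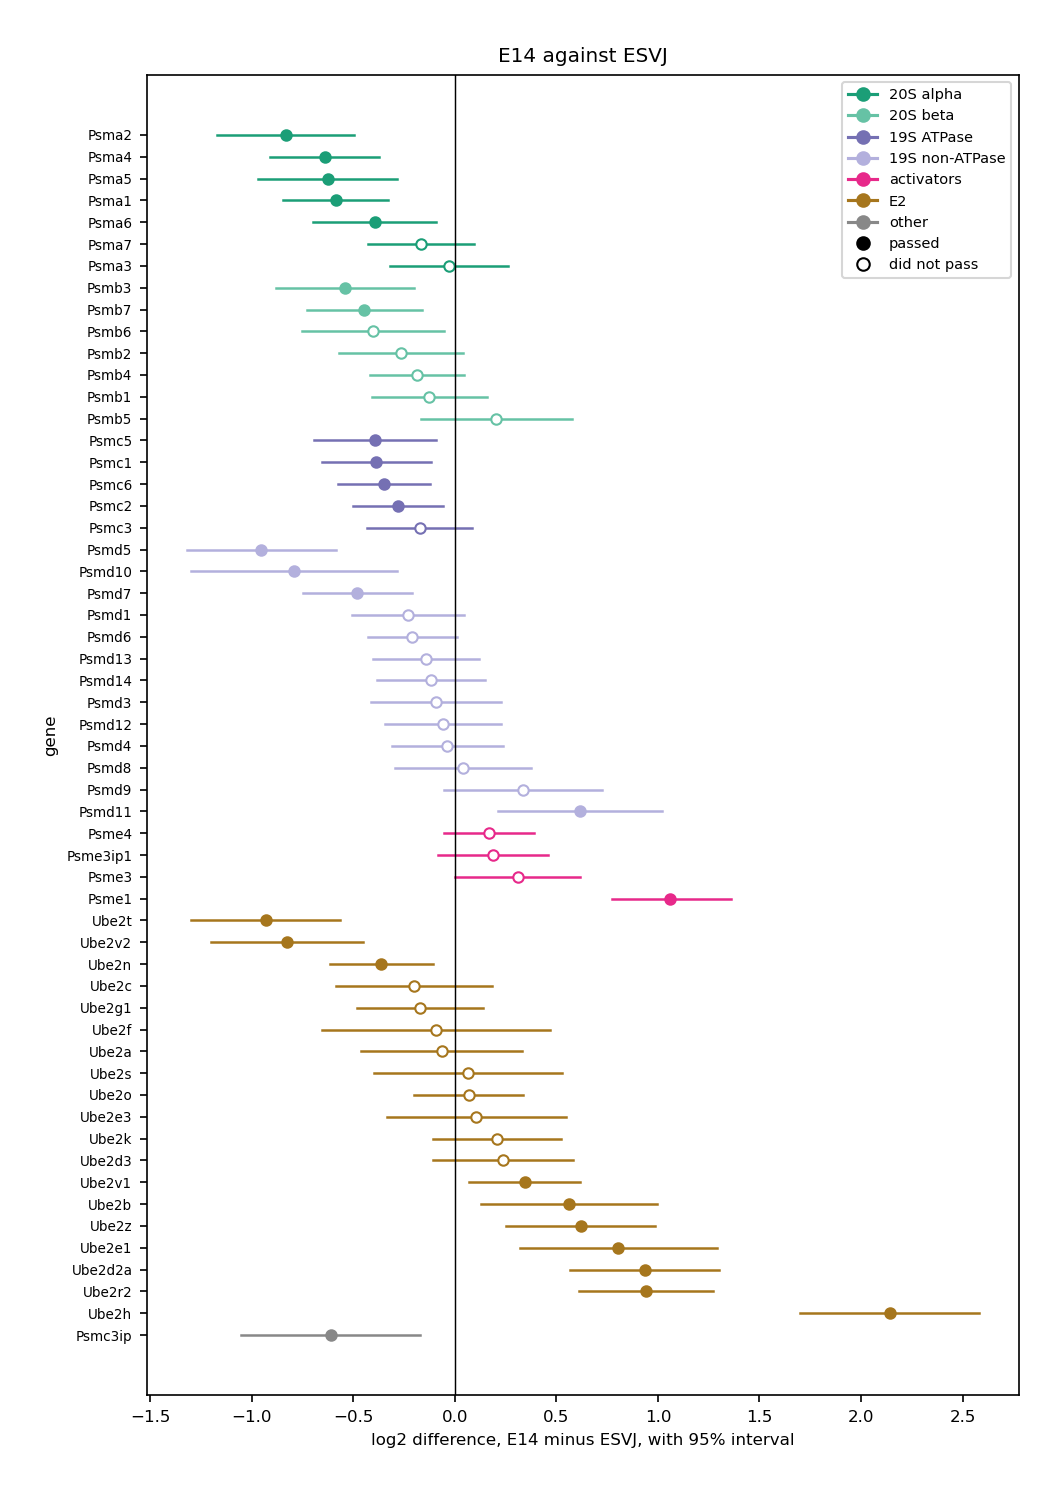
Log2 difference of E14 minus ESVJ for the 56 tested genes (points), with 95% intervals (lines), 3 arrays per line, grouped by role and filled where the gene passed. Core subunits lie mostly to the left of 0 (median -0.40), Ube2h lies farthest to the right (2.14) and Psmd5 farthest to the left (-0.95).

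Against the mean of the +/+ ES lines E14 and ESVJ, +/+ liver differed in 41 of 57 tested genes, 12 higher and 29 lower (71.9%, beside 75.8% of 7802 probe sets, 26.9% higher and 48.9% lower). The liver and ES arrays did not overlap in 38 genes (66.7%), beside 69.5% of all probe sets. All probe sets had a median of -0.43 on this scale and -0.13 after quantile normalization, which also moved the share of higher calls among all calls from 35.5% to 45.6%. Against that shift, the core subunits had a median of 0.33, with 6 higher and 2 lower of 14, but after quantile normalization the median was -0.29, with 3 higher and 6 lower, so the direction of the core depended on the scaling. With ESVJ as the single ES line, 3 were higher and 3 lower. Of the regulatory particle genes more were lower than higher under both scalings. The counts were 3 higher and 11 lower of 18 (median -0.50), and 2 higher and 11 lower after quantile normalization (median -0.55). The E2 enzymes had a lower median than either particle, with 2 higher and 12 lower of 20 (median -1.08), and 3 higher and 11 lower after quantile normalization (median -0.66).

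In the core, Psma7 was higher in liver by a log2 difference of 1.34 (adjusted p = 1.83e-05) and Psmb1 by 1.11 (adjusted p = 8.99e-06). Both passed under each of the 20 alternative settings tried for them, although another probe set of Psmb1 gave -0.24 (adjusted p = 0.17). Psma6 at 0.65 and Psma3 at 0.61 also passed, but they turned to -0.13 and -0.29 (adjusted p = 0.453 and 0.0411) after quantile normalization. Without +/+ liver replicate 2, which leaves a lone liver, they gave 0.368 and 0.404. In the regulatory particle, Psmd12, a lid subunit, read 2198, 1976 and 1933 in E14, 2319, 2317 and 1761 in ESVJ, and 327 and 261 in +/+ liver. The liver values lay far below the ES values, a difference of -2.70 (SE 0.16, n = 6 and 2, limma adjusted p = 4.18e-09). Psmd10 was higher in liver, by 0.89 (adjusted p = 0.00186), but did not pass against ESVJ alone (0.49, adjusted p = 0.0637). Psmc3ip, the recombination factor, read 9.69 and 11.3 in liver and 133 to 326 in the ES arrays, without overlap. Its liver signal lay under the minimum of 100, and the log2 difference was -2.49 with 32 added, -4.17 with 1 and -1.49 with 100.

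The activator genes did not share a direction, with Psme1 alone higher in liver. Psme1, the interferon-inducible subunit, read 2024 and 3635 in +/+ liver, a difference of 1.2 from the ES lines (SE 0.21, adjusted p = 0.00017). Psme3, the nuclear activator, read 2592, 2585 and 2251 in E14, 2070, 2403 and 1577 in ESVJ, and 432 and 271 in liver. Its difference was -2.59 (SE 0.19, adjusted p = 4.58e-08), and no liver reached an ES value. Psme4 gave -2.26 (adjusted p = 2.1e-08) and Psme3ip1, the partner of Psme3, -1.15 (adjusted p = 3.07e-05).

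Among the E2 enzymes, the interferon-inducible Ube2l6 read 707 and 748 in +/+ liver and 19.9 to 121 in the 6 ES arrays. It passed the signal minimum only through liver, since ESVJ averaged 24.6 and E14 74.9, and the size of its log2 difference rests on the added value: 3.33 with 32, 4.13 with 1 and 2.50 with 100. Ube2b read 1534 and 1912 in liver and 208 to 445 in the ES arrays, a difference of 2.33 (SE 0.18, adjusted p = 6.87e-08). Both were higher in the 2 livers than in the 6 ES arrays without overlap. The mitotic E2 Ube2s read 226 and 269 in +/+ liver and 4525 to 6259 in the ES arrays, a difference of -4.32 (SE 0.16, adjusted p = 4.94e-11). Its partner Ube2c read 83.9 and 134 in +/+ liver, near the signal minimum of 100, and gave -1.36 (SE 0.22, adjusted p = 7.08e-05). The Ube2c probe set carries a suffix that marks possible cross-hybridisation.

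Ube2t read 59.7 and 31.4 in liver, also under the minimum, and gave a log2 difference of -3.08 with 32 added, -3.79 with 1 and -2.31 with 100. Ube2l6, Psmc3ip and Ube2t are 3 of the 41 genes called in this comparison, and each was tested only through the tissue where it is high. Ube2v1, the other inactive partner of Ube2n, gave -2.23 (adjusted p = 2.42e-08). Ube2z gave -2.32 (adjusted p = 1.12e-07), though its second probe set gave -0.12 (adjusted p = 0.557). Ube2f, an E2 for NEDD8, gave 0.20 (95% interval -0.47 to 0.87) and did not pass.

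The pathway lists are read against the 48.9% of all probe sets called lower and the 26.9% called higher in liver. Of the 16 assembly, shuttle and deubiquitinase genes, 9 were lower and 1 higher, with the proteasome-bound deubiquitinases Uchl5 at -3.0 and Usp14 at -2.27 and the shuttle factors Ubqln2 at -2.71 and Rad23b at -1.90. Of 13 cullin ligase genes 10 were lower and 1 higher, with Cul3 at -2.46, Fbxw7 at -2.01, Eloc at -1.35 and Ddb1 at -1.14. Of 10 APC/C genes 6 were lower and 1 higher, with Cdc20 at -4.64, Cdc23 at -3.01, Anapc5 at -1.99 and Anapc4 at -1.86. Of 4 E1 genes 3 were lower, Sae1 at -2.18, Uba3 at -1.08 and Nae1 at -0.94, and Uba7 was higher at 1.2. Of 9 tested immunoproteasome and peptide-loading genes 5 were higher and 1 lower, with B2m at 4.79, H2-D1 at 3.77, H2-K1 at 3.34 and Psmb8 at 2.11. Proliferation markers summed to 941 to 1256 in +/+ liver and 15347 to 24184 in the +/+ ES arrays, macrophage markers to 3720 to 4595 and 601 to 1132, and Bub1, Aurka, Mki67, Top2a and Birc5 averaged under 100 in liver. Their part in these differences was not tested.

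**Figure D5:**
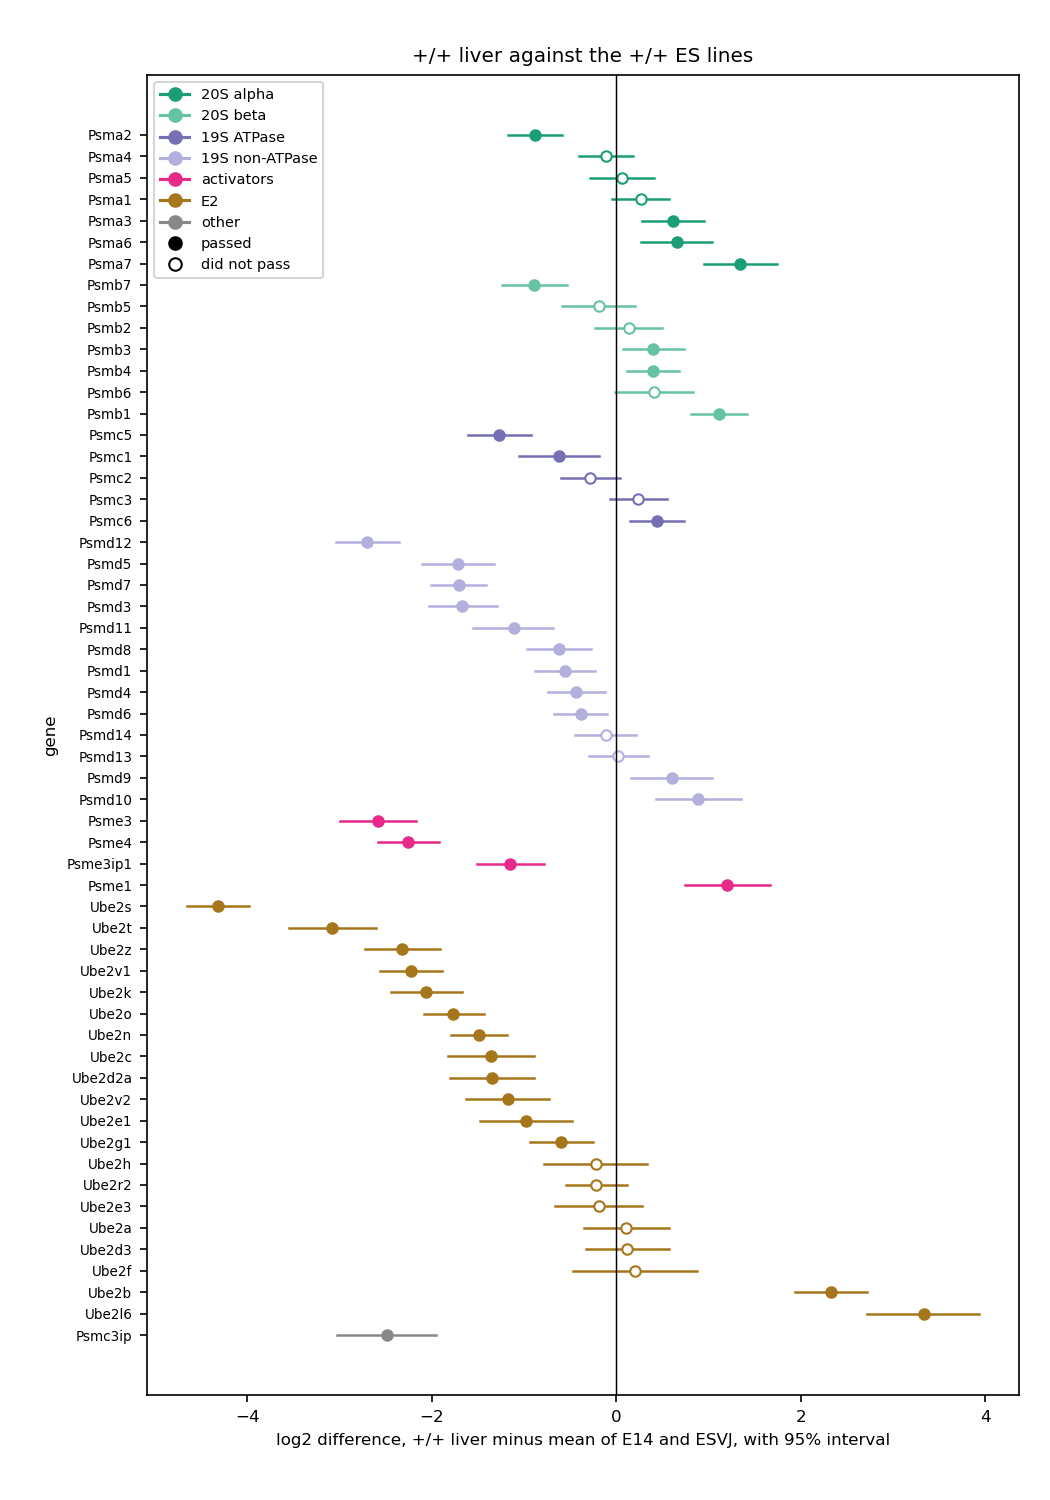
Log2 difference of +/+ liver (2 arrays) minus the mean of the E14 and ESVJ lines (3 arrays each) for the 57 tested genes (points), with 95% intervals (lines), grouped by role and filled where the gene passed. Ube2s lies farthest to the left (-4.32), Ube2l6 farthest to the right (3.33), and Psme1 (1.2) lies opposite Psme3 (-2.59) and Psme4 (-2.26).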

How the data were processed

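RNA of 16 samples was measured, 1 array each. Per the labels, the authors made the intensity of each probe set with Affymetrix MAS5.0 at default settings; the deposited intensity values had a 2% trimmed mean of 1500.8 to 1501.6 per array. They were rescaled to 500, 32 was added and log2 was taken, with probe sets under a mean of 100 and control probe sets left out. Groups came from the labels, and all 16 columns were used. Genes were named from the annotation of the array, which can be old: of 12488 probe sets, 10855 had 1 symbol, 396 several and 1237 none. The probe set with the highest mean signal stood for a gene. Genes of close families can share signal, and 11 of the 60 carry a suffix that marks possible cross-hybridisation. Differences of group means were tested in R 4.3.3 with limma 3.58.1 (moderated, with intensity trend), and the script was tested on simulated data. A shared fit held the 4 ES groups (7349 probe sets, 8 degrees of freedom left). The livers were fitted alone (7160, 2 degrees), +/+ liver with E14 and ESVJ (7802, 5 degrees), and both Abca1 pairs together (7883, 6 degrees). The number of arrays limits the precision, with a median standard error of 0.175 in the ES fit and 0.379 in the liver fit. Psmc4, Psmd2 and Ube2w were under the minimum in every fit, Ube2l6 in the ES fit, Psmc3ip and Ube2t in the liver fit and Ube2e3 in the fit of both Abca1 pairs.

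The members and lists were chosen with earlier results of these data known. Genes named with values are those that passed in a comparison or, above 16, the 8 largest rises and 8 largest falls. Where 0 passed, they are the 5 with the smallest p. Activators, APC/C partners and E2 genes for ubiquitin-like proteins were named in each comparison, and so were up to 4 passing genes of a pathway list with the smallest p. Further probe sets, RNA controls and single arrays were singled out after their values were seen. Alternatives were another scaling or pseudocount, other signal minimums, no trend, all probe sets of a gene, no probe sets with a cross-hybridisation suffix, other sets of arrays and each array left out.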

Additional observations from a re-analysis of the deposited data

Results flagged for a closer look

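By a test of the difference itself in limma, the effect of the Abca1 label passed as different between ES cells and liver for 2 genes. These were Psma7, an alpha-ring subunit (1.91 on the log2 scale, adjusted p = 0.0369), and Psmb1, a beta-ring subunit (1.51, adjusted p = 0.0494). The fit shared 1 estimate of spread between ES cells and the more variable livers. In the livers alone neither gene passed (limma adjusted p = 0.123 and 0.125). A second Psmb1 probe set gave 0.88 (adjusted p = 0.103). The calls of Psma7 and Psmb1 were lost with any ES array of the fit left out. They were also lost after quantile normalization, without a signal minimum and without the intensity trend. With an array left out, the differences ran from 1.38 to 2.43 for Psma7 and from 1.03 to 2 for Psmb1. The lowest of these, 1.38 and 1.03, came without replicate 1 of the livers labelled Abca1 +/-, the array with the high 3' to 5' ratios. That fit left a lone labelled liver.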

How the results depend on the processing

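No paired analysis was possible because the labels carry no replicate number that ties an array of one group to an array of another. With 2 or 3 arrays per group, small differences could not be tested with precision, and a lone liver left by an omission was assumed to vary like the other groups. Leaving out the 3 ES arrays with the highest signal of the CreX control was chosen after seeing the data.

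Fits that left a lone liver are not counted here, for any comparison. The count for E14 against ESVJ was 27 and ran from 18 to 27 over the alternatives. For +/+ liver against the ES lines it was 41, and it ran from 35 to 42 where both +/+ livers were kept. For Abca1 +/- ES cells against ESVJ it was 0 in each alternative. For Cdk4 +/- against E14 it was 2, but 0 on the deposited scale, without a signal minimum, without the intensity trend, with the probe sets of each gene averaged and with all 16 arrays in 1 fit, and 1 with the compared groups alone. Leaving out an array gave 0 to 3. The same count can stand for other genes: Psme1 was lost in 16 of 24 alternatives and Ube2o in 17. After quantile normalization Ube2o was lost and 1 gene of the regulatory particle was called higher. For the livers labelled Abca1 +/- it was 0, but 29 with all 16 arrays in 1 fit, where the livers share an estimate of spread with the ES cells. For the Abca1 difference between tissues it was 2, but 0 after quantile normalization, without a minimum or without the trend, 1 on the deposited scale, with a pseudocount of 1 or with probe sets averaged, and 10 with all 16 arrays. Leaving out an array gave 0 to 22. The causes were not tested.

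Some named genes changed sign. With probe sets averaged, Psme1 gave -0.0870 in Abca1 +/- ES cells, and Ube2z -0.0395 and Psmd11 -0.0429 in E14 against ESVJ. Without the high CreX arrays, Ube2f gave 0.0440 and Ube2s -0.0639 in E14 against ESVJ. Without probe sets that may cross-hybridise, Psmb5 gave 0.0845 in the labelled livers. After quantile normalization, Psme3ip1 gave -0.130 in the labelled livers, Psma6 -0.134 and Psma3 -0.286 in +/+ liver against the ES lines, and Ube2c 0.0362 and Ube2f 0.137 in the difference between tissues.

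With an array left out, the differences that crossed 0 had these ranges. For Cdk4 +/- they were -0.0593 to 0.198 for Ube2c and -0.00269 to 0.560 for Ube2f. For Abca1 +/- ES cells they were -0.132 to 0.14 for Psme1, -0.259 to 0.0397 for Psme3, -0.0954 to 0.148 for Ube2c, -0.251 to 0.0134 for Ube2f and -0.268 to 0.0962 for Ube2s. For E14 against ESVJ they were -0.291 to 0.272 for Ube2f and -0.0639 to 0.163 for Ube2s. In the labelled livers they were -0.149 to 0.290 for Psme3ip1, -0.0689 to 1.05 for Ube2c, -0.383 to 0.321 for Ube2f, -0.0795 to 0.322 for Ube2l6 and -0.364 to 0.118 for Ube2s. For +/+ liver against the ES lines the range was -0.139 to 0.540 for Ube2f. In the difference between tissues they were -0.142 to 0.297 for Psme3ip1, -1.0 to 0.712 for Ube2c, -0.445 to 0.259 for Ube2f and -0.202 to 0.280 for Ube2s. These differences did not pass, and the causes were not tested.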
